A study of Mus musculus with 12 samples.

Results

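The genes described here are 32 genes of the endoplasmic reticulum (ER), the compartment in which secreted and membrane proteins are folded: its chaperones and folding enzymes, the sensors of the unfolded protein response, and the genes of ER-associated degradation, translocation and export. They were taken by symbol from the annotation of the array, in a list drawn up with earlier results of these data known, out of 12393 genes that the arrays represent by a probe set with 1 symbol. Each gene was read from the probe set with its highest mean over 12 arrays. All 32 were measured, 31 passed a filter on low values, and 1, Ern1, did not. The cells were BW5147, a mouse thymic lymphoma line of T cell character, treated for 8 h and measured as total RNA in 6 groups of 2 arrays. The groups were unstimulated cells, dexamethasone (Dex, a glucocorticoid drug, 100 ng/ml), interleukin-9 (IL-9, 100 U/ml), the chemokine CCL1 (100 U/ml), Dex with IL-9, and Dex with CCL1. All arrays came from this single established line, and no other model was compared. The labels number the 2 arrays of each group 1 and 2 without saying whether they were separate cultures, so that a p-value here reflects only how far such arrays differ, possibly for technical reasons. The question for these genes was whether Dex, either cytokine or their combination moved the folding machinery or the stress response of the ER.

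Proteins enter the ER through a channel, the translocon, and are folded there by chaperones, lectins that hold glycoproteins, and protein disulfide isomerases. When unfolded proteins accumulate, 3 sensors in the ER membrane respond: IRE1 (gene Ern1), which splices the mRNA of the transcription factor Xbp1, ATF6 (Atf6), which is cut in the Golgi to release a transcription factor, and PERK (Eif2ak3), a kinase that slows translation. The factors then raise the chaperone and degradation genes together, and the chaperone BiP (Hspa5) is the classic readout. In lymphocytes the pathway is best known for building the secretory apparatus of plasma cells and for its part in T cell development and survival. Glucocorticoids such as Dex induce the death of many thymic lymphoma lines, and IL-9 and CCL1 are known to protect such cells.

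A sequence known from genes of this response is the ER stress response element (ERSE). It is bound by NF-Y at its CCAAT part and by ATF6 or XBP1 at its CCACG part. Promoter windows of 300 bases, 250 before and 50 after the transcription start in RefSeq (mouse assembly GRCm38.p6), were given for 26 of the 32 genes. The motif, CCAAT and CCACG with 9 bases of any kind between them, was searched on both strands and found in 8 of 26 windows (30.8%), against 37 of 27025 genes with a window (0.137%). The shorter element ERSE-II, ATTGG and CCACG with 1 base between them and so sharing the CCACG part, was found in 2 of 26 (7.69%) against 12 genes of all (0.0444%). Of the 26 genes with a window 10 had either element. The list was drawn up from genes of this response, in which the element is known. The high share thus describes the list and is not a test of it. The matches are shown as sequence. Each is written on the strand that carries the motif, from 5′ to 3′, with the fixed bases in capitals.
Hspa5 (chr2:34772025-34772043, plus strand): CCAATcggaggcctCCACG
Hsp90b1, first site (chr10:86705638-86705656, minus strand): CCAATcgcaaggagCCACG
Hsp90b1, second site (chr10:86705533-86705551, plus strand): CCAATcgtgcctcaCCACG
Calr (chr8:84847075-84847093, plus strand): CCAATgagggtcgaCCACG
Canx (chr11:50325800-50325818, minus strand): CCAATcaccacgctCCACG
Dnajc3 (chr14:118937827-118937845, plus strand): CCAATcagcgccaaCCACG
Pdia6 (chr12:17266491-17266509, plus strand): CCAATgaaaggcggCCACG
Creld2 (chr15:88819520-88819538, minus strand): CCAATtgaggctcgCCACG
Syvn1 (chr19:6046532-6046550, plus strand): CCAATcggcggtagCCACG
Herpud1, ERSE-II (chr8:94386377-94386387, plus strand): ATTGGgCCACG
Dnajb11, ERSE-II (chr16:22857852-22857862, plus strand): ATTGGcCCACG

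The fixed bases recur in genes of different roles: a chaperone of the HSP70 type, one of the HSP90 type, both lectins, co-chaperones, a disulfide isomerase and degradation genes. Hsp90b1 was the only gene of the 26 with 2 ERSE matches, 1 on each strand. Only exact matches to the fixed bases were counted, so that near matches were missed. The 9 ERSE matches lay upstream of the start, between 212 and 26 bases before it, and the ERSE-II match of Dnajb11 lay 8 to 18 bases after it. Of 93 other ER genes with a window, Derl3 and Ero1b had an ERSE. The UPR element TGACGTGG was found in Sec24d, 26 to 19 bases before its start, 1 of 26 (3.85%) against 0.714% of all genes. Of the 93 other ER genes 6 had it. The palindromic glucocorticoid response element (AGAACA and TGTTCT with 3 bases between them) was found in 0 of 26 windows and in 3 genes of all (0.0111%). A match is a stretch of letters, not a measured binding site, and windows of Hyou1, Atf6, Manf, Derl1, Reep5 and Sec61a1 were not analysed here.

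**Figure D1:**
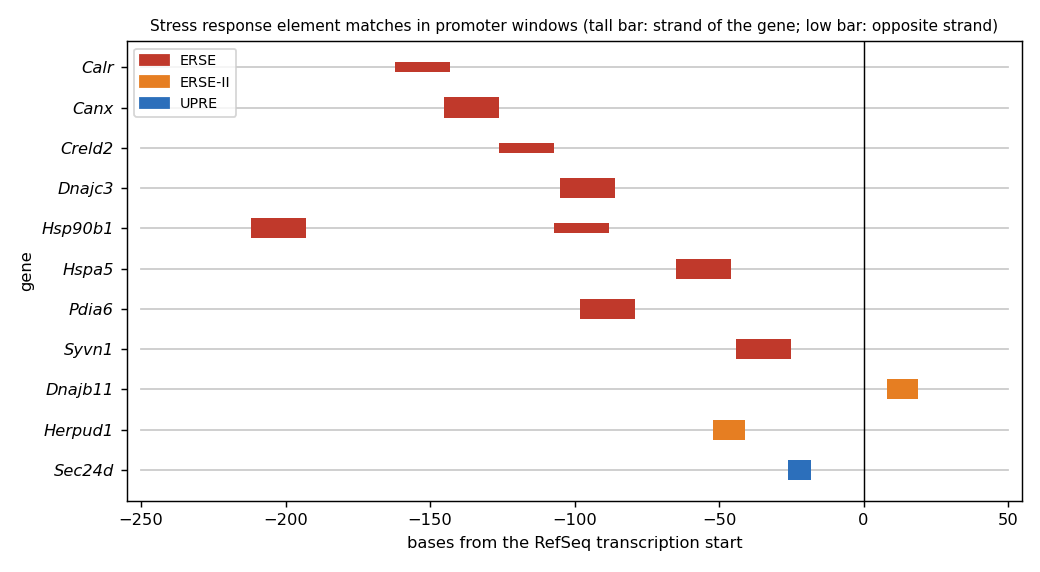
Positions of motif matches in the promoter windows of 11 genes, in bases from the RefSeq transcription start (x axis), with 1 line per gene; tall bars are on the strand of the gene and low bars on the opposite strand. The ERSE matches lie between 212 and 26 bases before the start.

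Upstream sequence is printed for 2 genes. Hspa5 is shown as the classic readout, with its exact ERSE match in capitals. Eif2ak3 is shown as the only gene past the threshold in a comparison, and it held no exact match to the 4 motifs. Both are the 250 bases before the start on the plus strand, chr2:34771840-34772089 and chr6:70844265-70844514.
Hspa5: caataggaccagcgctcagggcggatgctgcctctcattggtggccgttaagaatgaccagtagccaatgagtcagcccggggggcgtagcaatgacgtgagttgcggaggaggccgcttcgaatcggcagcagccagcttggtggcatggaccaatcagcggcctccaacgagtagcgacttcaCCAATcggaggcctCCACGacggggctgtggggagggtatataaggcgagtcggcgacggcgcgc
Eif2ak3: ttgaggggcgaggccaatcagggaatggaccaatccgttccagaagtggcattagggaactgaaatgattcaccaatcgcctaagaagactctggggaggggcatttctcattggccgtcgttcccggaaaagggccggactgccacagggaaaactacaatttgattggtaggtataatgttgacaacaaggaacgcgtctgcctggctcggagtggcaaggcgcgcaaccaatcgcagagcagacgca

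The values were linear MAS5 signals, scaled by the submitters so that each array had the same mean of 100.0 after trimming 2% at each end, and the number of arrays limits the precision. Of the T cell markers 6 of 8 were kept, with a summed signal of 4762 to 6539 over the arrays. Their defining genes Thy1 (878 to 1525) and Cd3g (531 to 661) were present, while Cd2 lay between 0.173 and 14.4 and was filtered out. Of 6 markers of B or plasma cells 1 was kept, Sdc1 (84.6 to 134), and Cd79a, Cd79b and Ms4a1 were below the filter. Macrophage markers summed to at most 34.1 and fibroblast markers to at most 28.7. Tsc22d3 (GILZ), a direct glucocorticoid receptor target, checked the Dex labels: its signals were 260 to 422 in the 6 arrays with Dex, 58.7 to 109 in the arrays labelled without Dex and numbered 2, and 230 to 347 in those labelled without Dex and numbered 1. The last 3 arrays therefore go against their label for this gene, and Dex is described separately for the numbers 1 and 2. The array Dex 2 stood apart, with a median correlation with the others of 0.967 against 0.979 to 0.984 for the rest. The array CCL1 2 was deposited in a table of its own, from a different type of array. The fits do not use it, so that CCL1 alone rested there on 1 array, CCL1 1, while ranges over 12 arrays include it. CCL1 1 is numbered 1, whereas the unstimulated group holds both numbers. Tsc22d3 was 330 in CCL1 1, and 347 and 109 in unstimulated 1 and 2. The comparisons of CCL1 against unstimulated, of the CCL1 average and interaction, and of the Dex average are thus not balanced for replicate number.

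The 31 genes varied over the 12 arrays about as much as all genes tested. The highest signal of a gene was less than 2 times its lowest in 24 of the 31, with a median ratio of 1.61, from 1.22 for Pdia3, an oxidoreductase of glycoprotein folding, to 3.61 for Golt1b, a Golgi transport protein. Their log2 standard deviation over the arrays had a median of 0.200 (0.0944 to 0.369), against 0.203 for 7506 genes tested. The log2 range had a median of 0.610, against 0.681. The share of all genes with a ratio under 2 was not counted, and the genes were not matched for signal level. The mean of the 31 genes, each centred on its own average, ran from -0.084 in unstimulated 2 to 0.12 in Dex+CCL1 2 on the log2 scale. Dex 2 held the highest or lowest value of 15 of the 31 genes: it was highest for 10, among them Xbp1, Edem1 and Sdf2l1, and lowest for 5, among them Hsp90b1 and Canx. Over all genes tested Dex 2 was highest in 21.6% and lowest in 15%.

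**Figure D2:**
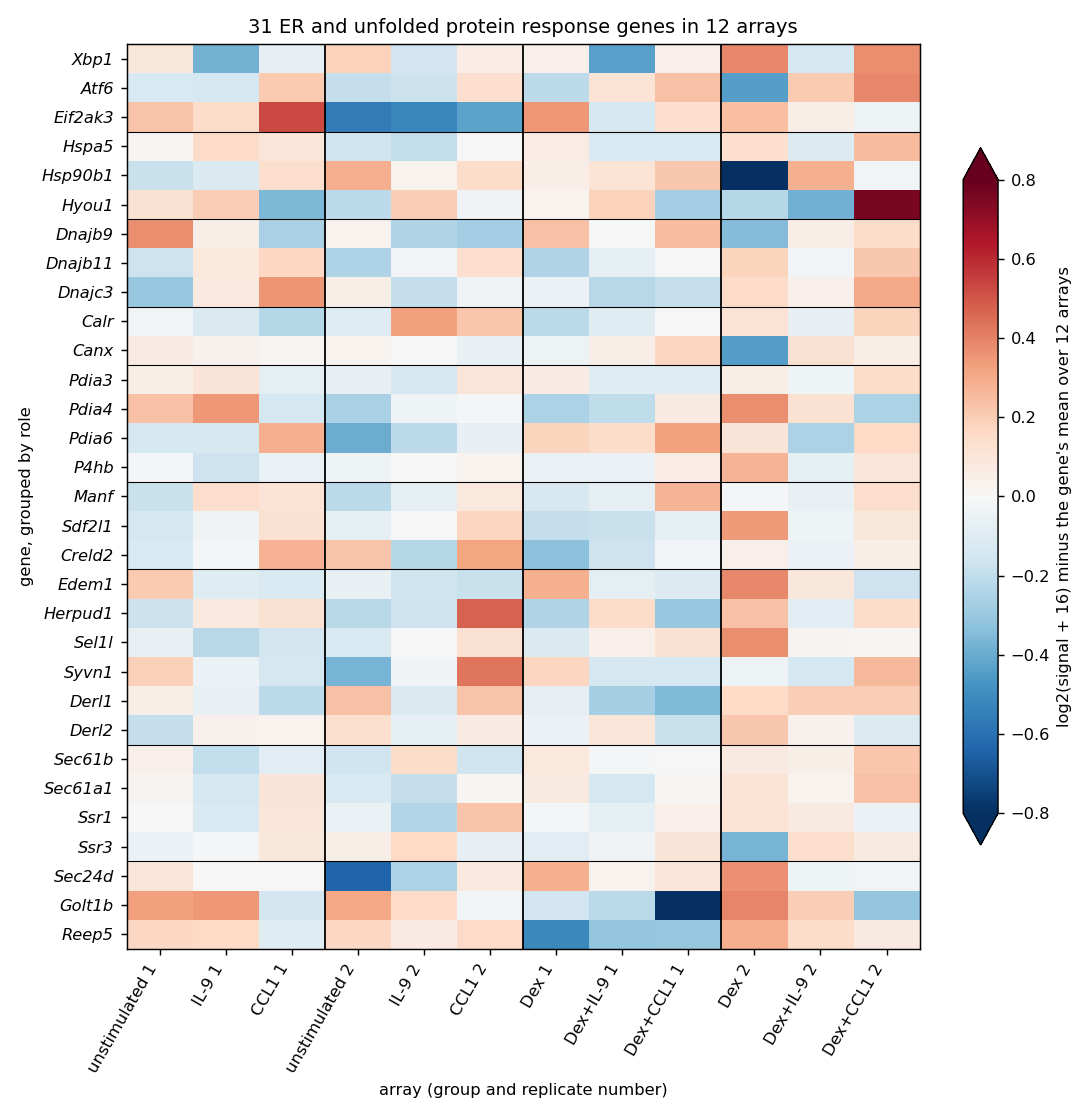
Log2(signal + 16) of 31 genes (rows, by role) in 12 arrays (columns, by Dex and replicate number), each minus the mean of the gene over the arrays; red is above and blue below that mean. The largest departures are single cells, such as Hsp90b1 in Dex 2 and Hyou1 in Dex+CCL1 2, and the 3 arrays without Dex numbered 2 are low for Eif2ak3.

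Differences were tested with limma on log2(signal + 16) over 13575 probe sets, with Benjamini-Hochberg adjustment and a threshold of 0.05. For Dex averaged over the cytokine conditions limma called 0 of 31 genes (0% of all probe sets called), and 0 had an unadjusted p under 0.05 (1.53% of all). For IL-9 averaged over the Dex conditions it called 0 of 31 (0.0958% of all), with 2 at an unadjusted p under 0.05 (8.57% of all). For CCL1 averaged over the Dex conditions it called 0 of 31 (0.00737% of all), with 5 unadjusted (5.6% of all). The IL-9 and CCL1 comparisons share their control arrays. Within the arrays numbered 1, Dex gave 0 of 31 calls by limma (0% of all) and 2 unadjusted (2.5%). Within the arrays numbered 2 it gave 0 of 31 by limma (0.597% of all) and 3 unadjusted (10.5%). Between the arrays numbered 2 and 1, limma called 1 of 31 without Dex (0.796% of all), which was Eif2ak3, and 0 of 31 with Dex (0.0221% of all), with 2 and 5 unadjusted (9.17% and 15.8% of all). The single steps gave 0 calls each by limma: Dex against unstimulated (0% of all called, 2 unadjusted with 2.95% of all), IL-9 against unstimulated (0.0221%, 1 unadjusted with 4.89%), IL-9 within Dex (0.0221%, 3 unadjusted with 5.7%), CCL1 against unstimulated (0%, 1 unadjusted with 3.29%) and CCL1 within Dex (0.00737%, 4 unadjusted with 6.52%). No interaction was called among the 31: Dex with IL-9 (0% of all called, 0 unadjusted with 1.58%), Dex with CCL1 (0%, 1 unadjusted with 2.87%) and Dex with replicate number (0.206%, 3 unadjusted with 10.1%), all by limma.

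The intervals show what size of change these arrays could have held. The 95% interval of the Dex average lay within 1 log2 of 0 for all 31 genes and within 0.5 for 28. For IL-9 the counts were 31 and 26, and for CCL1, where Golt1b was the exception, 30 and 17. The controls of the Dex average include the arrays labelled without Dex and numbered 1, where Tsc22d3 was at the level of the Dex arrays. Tsc22d3 itself was not called for the Dex average, at 0.58 (SE 0.31), so that this average does not bound a Dex effect. Within the arrays numbered 2 the glucocorticoid targets were higher with Dex, with Tsc22d3 at 1.79 (SE 0.14, limma adjusted p = 6.2e-05). There the Dex interval lay within 1 log2 for 30 of the 31 genes, the exception being Hsp90b1, and within 0.5 for 18. Other intervals were wider. For CCL1 against unstimulated they lay within 1 log2 for 25 genes and within 0.5 for 5. For the interaction of Dex with IL-9 the counts were 24 and 1, and for Dex with CCL1 21 and 0. The lack of calls in these comparisons thus bounds the changes only loosely. The median difference of the 31 genes was 0.04 for the Dex average (0.00 over all genes tested), -0.05 for IL-9 (-0.02) and 0.01 for CCL1 (-0.03). Within the arrays numbered 2 the Dex median was 0.15 (0.00 over all genes), with 26 of the 31 genes above 0, and within those numbered 1 it was -0.01 (0.00), with 13 above 0. The medians kept their sign under quantile normalization and median centring in these 5 comparisons. Leaving out 1 array turned the sign of the IL-9 median, to 0.02 without Dex 2, and of the CCL1 median, to -0.02 without Dex+CCL1 2 and to -0.00305 without unstimulated 2.

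**Figure D3:**
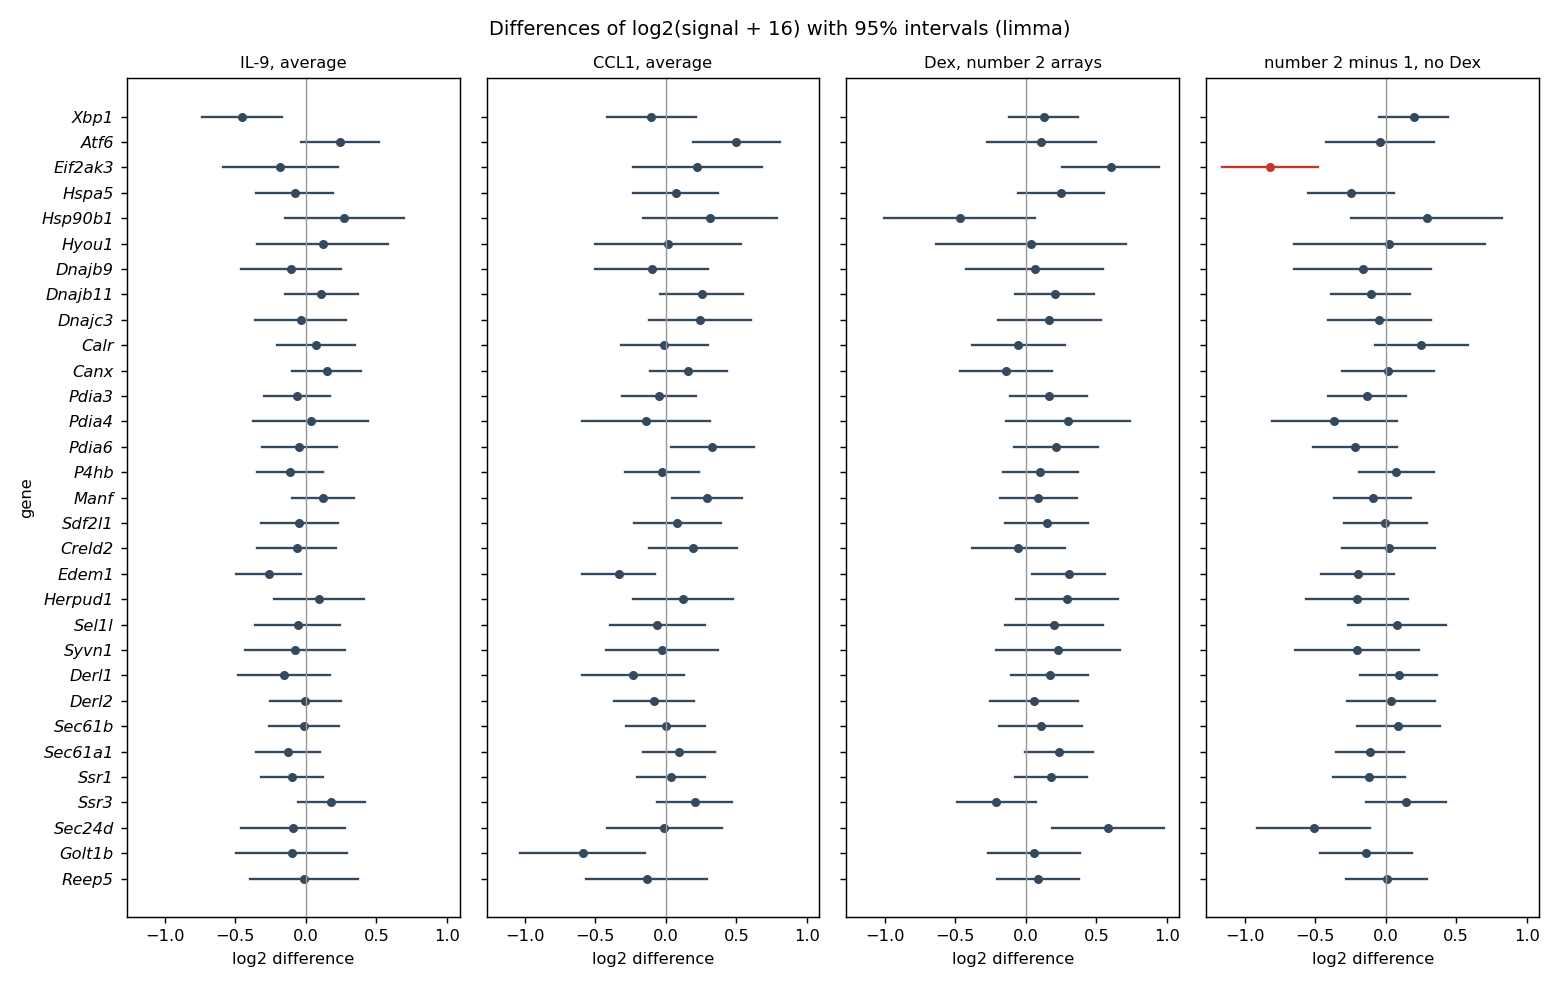
Differences of log2(signal + 16) with pointwise 95% intervals from limma (x axis, log2) for 31 genes (y axis, by role) in 4 comparisons: IL-9, CCL1, Dex among arrays numbered 2, and number 2 minus 1 among arrays without Dex. Eif2ak3 in the last comparison, drawn in red, is the 1 difference past the threshold, at -0.82.

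Among the sensors, Eif2ak3 (PERK) was the gene that moved. Its signals in the arrays labelled without Dex were 242, 228 and 302 for the number 1 arrays of unstimulated, IL-9 and CCL1 cells, and 134, 138 and 148 for the number 2 arrays of the same groups. With Dex they were 264 and 244 for Dex, 184 and 211 for Dex+IL-9, and 226 and 198 for Dex+CCL1, numbers 1 and 2 in turn. The 3 arrays without Dex numbered 2 were the lowest of the 12 and overlapped with none of the other 9, which spanned 184 to 302. The share of all probe sets that separate in this way was not counted. Between the numbers without Dex 15.8% of all probe sets separated, and by Dex within number 2 12%. Eif2ak3 was lower in number 2 than in number 1 without Dex by a log2 difference of -0.82 (SE 0.16, 95% interval -1.16 to -0.48, limma adjusted p = 0.0347). With Dex the same difference was -0.03 (SE 0.14, limma adjusted p = 0.934). Within number 2 Dex differed from no Dex by 0.60 (SE 0.16, limma adjusted p = 0.200), within number 1 by -0.19 (SE 0.14), and the difference of these effects, 0.79 (SE 0.21, limma adjusted p = 0.247), did not pass the threshold. The array CCL1 2, which the fit did not use, lay with the low arrays at 148, and with it added the limma adjusted p was 0.00523. The call was lost when 9 of the 11 arrays were left out one at a time (adjusted p up to 0.413, without unstimulated 2), and held without Dex 2 or without Dex+IL-9 2. It was also lost without the filter (limma adjusted p = 0.0704) and without the intensity trend (0.0752).

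The arrays in which Eif2ak3 was low were those in which glucocorticoid targets were low. The centred mean of 6 such targets was -0.72, -0.83 and -0.79 in unstimulated 2, IL-9 2 and CCL1 2, and 0.08 to 0.50 in the other 9 arrays. Whether glucocorticoid activity had a part in the Eif2ak3 difference was not tested, and it cannot be told apart from the replicate number of these arrays. A second probe set of Eif2ak3, with signals of 0.649 to 26.7, was higher with Dex within number 2 by 0.90 (SE 0.17, limma adjusted p = 0.0393) and differed by -0.79 between the numbers without Dex (SE 0.17, limma adjusted p = 0.0620). The third gave 0.39 (SE 0.19) and -0.07 (SE 0.19) and passed in neither. Eif2ak3 and its 2 further probe sets thus had the same sign in both comparisons.

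**Figure D4:**
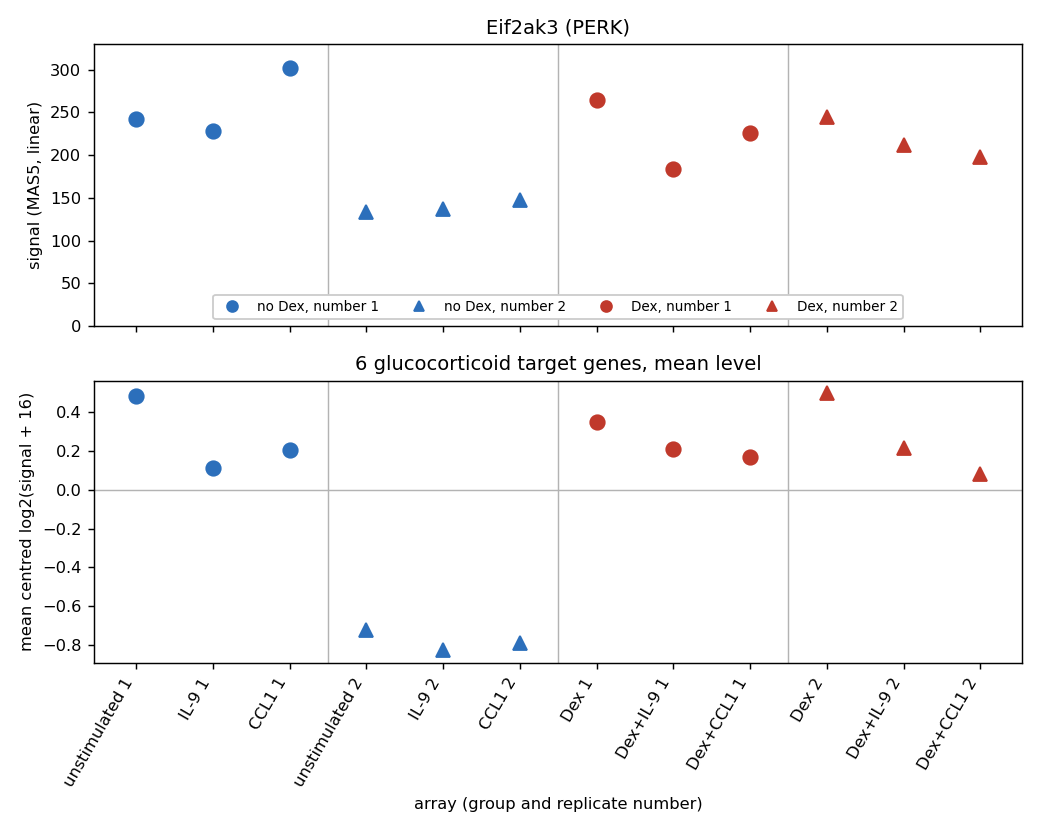
Eif2ak3 signal (upper panel, linear MAS5 units) and the mean of 6 glucocorticoid target genes (lower panel, centred log2 units) in 12 arrays, 1 point per array, coloured by Dex and shaped by replicate number. The 3 arrays without Dex numbered 2 lie at 134 to 148 in the upper panel and at -0.83 to -0.72 in the lower.

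Xbp1, the transcription factor downstream of IRE1, had signals of 467 and 499.6 in unstimulated cells and 451 and 576 with Dex. With IL-9 they were 334 and 393, and with Dex+IL-9 320.3 and 395. With CCL1 they were 418 and 458, and with Dex+CCL1 452 and 573. The 4 arrays with IL-9 (320.3 to 395) were below all 4 without a cytokine (451 to 576), and Xbp1 was the 1 gene of 31 to separate in this way (6.28% of all probe sets separated). The IL-9 difference was -0.45 (SE 0.13, 95% interval -0.73 to -0.17), and it missed the threshold (limma adjusted p = 0.338). It was -0.40 without Dex and -0.50 within Dex, with an SE of 0.18 for each. The further probe sets of Xbp1, in the order of the figure panels, gave -0.47 (SE 0.13), -0.22 (SE 0.12) and -0.50 (SE 0.19). Their limma adjusted p-values ran from 0.319 to 0.633, and in the first and the last the 4 IL-9 arrays were again below the 4 without a cytokine. The last had low signals, 14.8 to 18.4 with IL-9 and 25.1 to 33.9 without a cytokine. The median over all probe sets was 16.2, and its correlation with the probe set used was 0.30. Leaving out Dex 1 brought the Xbp1 difference to -0.54. That fit left 1 array for Dex without a cytokine, the array that stood apart from the others. It also held the highest Xbp1 signal (576), so the larger difference does not strengthen the IL-9 result. These probe sets do not tell the spliced from the unspliced form of the mRNA, so that IRE1 activity was not measured.

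Atf6, the sensor released in the Golgi, had signals of 53.5, 50.0, 49.2 and 39.8 without a cytokine, the last 2 with Dex. With CCL1 it had 71.3 and 66.8, and with Dex+CCL1 72.7 and 82.5, so that the 4 CCL1 arrays were above the 4 without a cytokine. With IL-9 it had 52.4 and 51.0, and with Dex+IL-9 65.6 and 71.2, above the arrays without a cytokine only where Dex was present. The CCL1 difference of Atf6 was 0.50 (SE 0.14, limma adjusted p = 0.532) and 0.48 with CCL1 2 added (limma adjusted p = 0.281). Of the 31 genes 3 separated by CCL1, Atf6 and Manf upward and Edem1 downward (4.99% of all probe sets separated in either direction). Ern1, which encodes IRE1, had signals of 1.34 to 13.9 and was below the filter in its 3 probe sets, so that no level of it was tested.

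**Figure D5:**
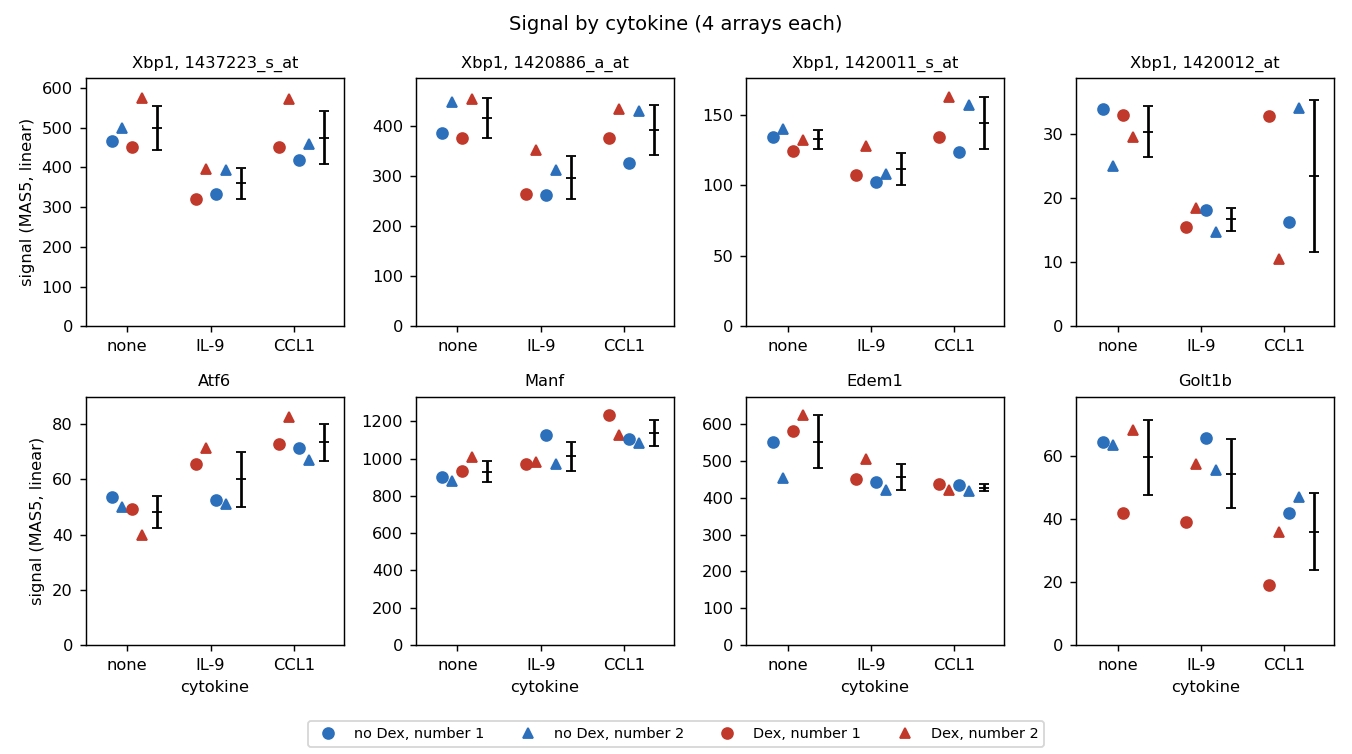
Linear MAS5 signal (y axis) by cytokine (x axis, none, IL-9 or CCL1, 4 arrays each) for the 4 probe sets of Xbp1 and for Atf6, Manf, Edem1 and Golt1b; points are arrays and bars the mean with 1 SD. In the first panel the IL-9 arrays of Xbp1 lie at 320.3 to 395, below 451 to 576 without a cytokine.

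The classic readout, Hspa5 (BiP, the HSP70 chaperone of the ER lumen), was not called in any comparison. Its signals were 2377 and 2114 in unstimulated cells and 2466 and 2599.7 with Dex. They were 2624 and 2064 with IL-9 and 2530.1 and 2369 with CCL1. With Dex+IL-9 they were 2169 and 2188, and with Dex+CCL1 2171 and 2816. The groups overlapped, and the highest signal was 1.36 times the lowest. Its differences were 0.02 for Dex (SE 0.11), -0.08 for IL-9 (SE 0.12) and 0.07 for CCL1 (SE 0.14). The Dex difference was 0.25 within number 2 (SE 0.14, limma adjusted p = 0.546), where the arrays overlapped, and -0.15 within number 1 (SE 0.12). Without Dex the number 2 arrays (2064 to 2369) were below those numbered 1 (2377 to 2624), 1 of 2 such genes with Eif2ak3 (15.8% of all probe sets separated), at a difference of -0.24 (SE 0.14, limma adjusted p = 0.674). A second probe set of Hspa5 did not follow the first, with a difference of 0.06 there (SE 0.13). In that second probe set the 4 IL-9 arrays, at 779 to 884, lay below the 4 without a cytokine, at 935 to 1054, with an IL-9 difference of -0.25 (SE 0.11, limma adjusted p = 0.586). In the first probe set the same arrays overlapped.

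Hsp90b1 (GRP94, the HSP90 of the ER) turned on 1 array. Its signal was 369.8 in Dex 2 and 641 to 894 in the other 11 arrays. Its second probe set had 338 in Dex 2 and 590.0 to 995 elsewhere, so that both showed the same low array. Its Dex difference within the arrays numbered 2 was -0.47 (SE 0.25, limma adjusted p = 0.530), and without Dex 2 it was -0.07 (SE 0.16). The difference of IL-9 within Dex was 0.65 (SE 0.27, limma adjusted p = 0.838). It became 1.14 and passed when Dex 1 was left out, which leaves Dex 2 as the only control (limma adjusted p = 0.00892), and was 0.15 without Dex 2. Hyou1 (GRP170), a nucleotide exchange factor for BiP, lay at 109 to 171 in 11 arrays and at 261 in Dex+CCL1 2. Its other 2 probe sets did not show that high array.

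The genes of the J-domain proteins, which hand substrates to BiP, were not called in any comparison. Dnajb9 (ERdj4) had signals of 34.3 to 66.7, Dnajb11 (ERdj3) of 316 to 442, and Dnajc3 (p58IPK, an inhibitor of PERK) of 163 to 265. None had an unadjusted p under 0.05 in the averages over Dex, IL-9 or CCL1. With Dex, Dnajc3 was higher in the number 2 arrays (211 to 256) than in those numbered 1 (174 to 198), a difference of 0.31 (SE 0.14, limma adjusted p = 0.316). Its other 4 probe sets were on the opposite side of 0 there, at -0.18 to -0.48. The lectin chaperones Calr (calreticulin, 716 to 1058) and Canx (calnexin, 795 to 1222) hold glycoproteins during folding. Canx was lowest in Dex 2, at 795, against 1041 to 1222 in the other arrays, and its second probe set was lowest there too, at 407 against 580.0 to 717.

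The protein disulfide isomerases form and rearrange disulfide bonds. Pdia3 (ERp57) was the steadiest gene of the 31, at 1694 to 2061, and P4hb (PDI) had 512 to 617 in 11 arrays and 701 in Dex 2. Pdia4 (ERp72) had 63.5 to 107 and no group stood apart. Pdia6 (P5) had 422 and 352 in unstimulated cells, 575 and 446 with CCL1, and 590.1 and 524 with Dex+CCL1. With Dex it had 533 and 504, so that Dex and CCL1 overlapped. Its CCL1 difference was 0.33 (SE 0.13, limma adjusted p = 0.860), with CCL1 alone taken from CCL1 1, at 575. Dex against unstimulated gave 0.41 (SE 0.17, limma adjusted p = 0.995). Neither Pdia6 difference passed.

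Of the small lumenal and secreted targets of the response, Manf, a secreted factor induced by ER stress, had 899.6, 878, 933 and 1009.7 without a cytokine, the last 2 with Dex. With CCL1 it had 1104 and 1083, and with Dex+CCL1 1236 and 1125, all 4 above the arrays without a cytokine. With IL-9 it had 1126 and 971, and with Dex+IL-9 970 and 980, so that IL-9 1 lay among the CCL1 arrays. The CCL1 difference of Manf was 0.29 (SE 0.11, limma adjusted p = 0.849). Sdf2l1, a lumenal partner of ERdj3, had 487 to 528 in the Dex arrays numbered 1 and 544 to 711 in those numbered 2. That difference was 0.28 (SE 0.12, limma adjusted p = 0.272), and Dex 2 held the 711. Creld2, a lumenal protein raised by ER stress, had 208 to 334, and its groups overlapped.

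The degradation genes remove misfolded proteins to the cytosol. Edem1, a lectin that marks glycoproteins for disposal, had 551, 454, 581 and 624 without a cytokine, the last 2 with Dex. With CCL1 it had 435, 417, 439 and 421, all below the arrays without a cytokine, and with IL-9 it had 443, 422, 450.4 and 506, which overlapped with them. The CCL1 difference was -0.33 (SE 0.12, limma adjusted p = 0.766) and the IL-9 difference -0.26 (SE 0.11, limma adjusted p = 0.522). In its second probe set the IL-9 arrays (138 to 204) were below those without a cytokine (229.7 to 264), at -0.42 (SE 0.16, limma adjusted p = 0.516). There the CCL1 arrays overlapped with the controls, at 143 to 249. Derl1, a channel protein of this path, had 290.2 to 356 in the Dex arrays numbered 1 and 421 to 432 in those numbered 2, at 0.41 (SE 0.11, limma adjusted p = 0.128). Its 3 further probe sets had the same sign there, at 0.04 to 0.31. Herpud1 (196 to 347), a scaffold of the ligase complex, the ligase Syvn1 (27.0 to 58.7) and its partner Sel1l (80.0 to 129) were not called in any comparison, nor was Derl2 (248 to 335).

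None of the translocon genes was called in any comparison. Sec61a1 and Sec61b, subunits of the channel, had 605 to 817 and 536 to 723. Ssr1 and Ssr3, subunits of the translocon-associated complex, had 513 to 711 and 403 to 591. Within number 2, Sec61a1 separated by Dex, at 703 to 817 with it and 605 to 700.2 without, 1 of 2 such genes with Eif2ak3 (12% of all probe sets separated). The Sec61a1 difference was 0.24 (SE 0.11, limma adjusted p = 0.484). Of its 5 further probe sets 4 overlapped there and 1 separated, with differences of 0.03 to 0.38, none called. Ssr3 was lowest in Dex 2, at 403.

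Of the 3 genes of ER shape and export none was called. Between the numbers with Dex, Golt1b differed by 0.51 (SE 0.13, limma adjusted p = 0.121) and Sec24d by -0.03 (SE 0.16). Reep5, a protein that curves ER tubules, had 269.8, 313 and 315 in the Dex arrays numbered 1 and 483, 435 and 413 in those numbered 2. The groups did not overlap, and the 6 arrays without Dex, at 365 to 442, lay above those numbered 1 with Dex. With Dex the numbers differed by 0.54 (SE 0.11, limma adjusted p = 0.105), and within number 1 Dex differed from no Dex by -0.45 (SE 0.11, limma adjusted p = 1.00). A second probe set of Reep5 gave 0.54 between the numbers with Dex (SE 0.16, limma adjusted p = 0.157), and the third gave 0.14 (SE 0.20). Of the 31 genes 4 separated between the numbers with Dex, all higher in number 2 (17.9% of all probe sets separated): Dnajc3, Sdf2l1, Derl1 and Reep5. By Dex within number 1, 2 separated, Golt1b and Reep5, both lower with Dex (8.71% of all). The 2 further probe sets of Reep5 overlapped there, and so did the second of Golt1b.

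Golt1b, a Golgi transport protein, had 64.7 and 63.7 in unstimulated cells, 65.8 and 55.6 with IL-9, and 42.1 and 47.2 with CCL1. With Dex it had 41.9 and 68.4, with Dex+IL-9 39.3 and 57.6, and with Dex+CCL1 19.0 and 36. It was lowest in Dex+CCL1, and in each Dex group the array numbered 1 was the lower. Its CCL1 difference was -0.59 (SE 0.20, limma adjusted p = 0.755), and its Dex difference within number 1 was -0.59 (SE 0.13, limma adjusted p = 1.00). A second probe set of Golt1b did not follow, at -0.06 (SE 0.22) for CCL1 and -0.11 (SE 0.23) for Dex within number 1. Sec24d, a cargo adaptor of the vesicles that leave the ER, had 30.0 in unstimulated 2 and 44.5 to 76.8 in the other 11 arrays. Its difference between the numbers without Dex was -0.51 (SE 0.18, limma adjusted p = 0.359). By Dex over all 12 arrays, 0 of 31 genes separated (0.0884% of all probe sets).

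The wider ER gene lists gave no call either. The lists held, after the filter, 23 other folding and oxidation genes, 16 of degradation, 24 of the translocon and glycosylation, 18 of transport to the Golgi, 10 of the PERK and ATF4 branch and 7 other stress sensor genes. By limma 0 of them were called in any of the 15 comparisons. The PERK and ATF4 branch is a list of genes linked to PERK and ATF4, and PERK activity was not measured. Without Dex, 5 of its 10 genes were higher in number 2 at an unadjusted p under 0.05, with a median difference of 0.36. With Dex, 5 of 10 were, with a median of 0.28. Over all probe sets 9.17% passed that p in either direction without Dex and 15.8% with it. The medians over all genes tested were 0.02 in both. Ddit3 (CHOP), a transcription factor of prolonged stress, had 48.9 to 79.4 in the number 1 arrays and 75.5 to 102 in the number 2 arrays. It differed between the numbers by 0.49 without Dex (SE 0.18, limma adjusted p = 0.357) and by 0.48 with Dex (SE 0.15, limma adjusted p = 0.175). Atf4, the factor translated when PERK is active, differed by 0.26 (SE 0.14) and 0.25 (SE 0.12), and Ppp1r15a (GADD34), which reverses the PERK signal, by -0.14 (SE 0.18) and 0.23 (SE 0.16). Eif2ak3 itself differed in the other direction without Dex (-0.82) and by -0.03 with Dex. With IL-9, Ppp1r15a differed by 0.39 (SE 0.14, limma adjusted p = 0.482).

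The genes with an element were compared with those without one by their values alone. For CCL1 without Dex the differences use only the array CCL1 1. The 10 genes with an ERSE or ERSE-II had a median CCL1 difference of 0.18, with 8 above 0, against -0.05 for the 15 with a window and neither element, with 5 above 0, and 0.05 for the 6 without a window. For IL-9 the medians were 0.02, -0.09 and 0.05 in the same order, and for Dex within number 2 they were 0.19, 0.15 and 0.10. For Dex within number 1 they were -0.09, 0.00 and -0.01, and for the Dex average 0.01, 0.05 and 0.06. In these last comparisons the genes with an element had the lowest median. In all the comparisons given here no gene with an ERSE or ERSE-II was called by limma, and the medians were not tested against each other.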

How the data were processed

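The deposited intensity values were MAS5 signals, as the submitters' processing notes name that tool; its version and any further step were not given in the sources used. They were linear, in 1 table of 11 arrays and 1 of a single array, and their trimmed means (100.04 to 100.05) show a common scaling that hides a shift of all genes. After removal of 64 control probe sets, log2(signal + 16) was computed, and 13575 of 22626 probe sets with a mean above the 40th percentile (signal 6.32) were kept; folds of low signals are understated. Models were fitted to the 11 arrays in limma 3.58.1 (R 4.3.3) with an intensity trend: 1 mean per group (5 residual, 6.47 prior degrees of freedom), and cytokine plus Dex split by replicate number (5 and 6.96). The fits were tested on simulated data. All 32 genes, Atf4, Ddit3, Ppp1r15a and any listed ER gene called were to be named; genes, lists and the split were chosen with earlier results of these data known. Alternatives were pseudocounts of 1 and 64, other filters, quantile normalization, median centring, no trend, the replicate block, CCL1 2 added, 1 probe set per gene and each array left out.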

Additional observations from a re-analysis of the deposited data

How the results depend on the processing

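Of the 15 comparisons, 14 kept 0 calls among the 31 genes under every alternative other than leaving out an array. The exception was number 2 minus 1 without Dex, with 1 call (Eif2ak3), which became 0 with no filter (32 genes) and with no intensity trend; the cause was not tested. Leaving out 1 array at a time gave 0 to 1 calls there. It also gave 0 to 1 for Dex against unstimulated, IL-9 within Dex, CCL1 within Dex and the IL-9 by Dex interaction (Hsp90b1, without Dex 1), for IL-9 averaged (Xbp1, without Dex 1) and for number 2 minus 1 with Dex (Reep5, without Dex+IL-9 2). In such fits the lone array of a group is assumed to vary like the other groups. Without CCL1 1 the 3 CCL1 comparisons without Dex or averaged, including the interaction, and the Dex average gave no value. Deviations of arrays with the same number correlated over 0.1 in 5 of 10 pairs of groups. In the 3 pairs of groups with Dex the correlations were 0.181 to 0.307. In the pair without Dex, IL-9 and unstimulated, the correlation was 0.237. Between a group with and a group without Dex they ran from -0.0051 to 0.137. The group model did not take the numbers as pairing the arrays. It thus leaves out what arrays of the same number share within a Dex condition. With the replicate block 0 genes were called in the 10 comparisons of the group model, and the Xbp1 difference for IL-9 had a limma adjusted p of 0.118. Median centring moved the median of all probe sets from -0.03 to 0.08 for CCL1 against unstimulated and from 0.02 to -0.12 for the CCL1 by Dex interaction. The 2 arrays per group limit the size of change that could be seen. Of 37 further kept probe sets of these genes, 13 correlated at 0.5 or more with the one used and 8 below 0.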
